A study of Bos taurus with 14 samples.

Results

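The slow fibre contractile genes are a set of 9 genes, MYH7, MYL2, MYL3, TNNC1, TNNI1, TNNT1, TPM3, MYOZ2 and CSRP3, taken by gene symbol from the array annotation. A probe set is the group of short oligonucleotides that measures 1 transcript on the array. Every probe set whose only gene symbol is one of these was kept, which gave 13 probe sets for 7 of the 9 genes, of 24016 bovine probe sets in all. The IDs used below, such as Bt.6620.1.S1_at, are the names of probe sets on the array. TNNI1 and CSRP3, the slow troponin I and the muscle LIM protein, were matched by no probe set and are not analysed here. Expression was measured in M. longissimus dorsi (LD) muscle of crossbred Charolais × Limousin heifers, with 1 Affymetrix Bovine array for each animal. The outdoor/pasture-fed group (n = 7) grazed a pasture of ryegrass, Poa and white clover. The indoor/concentrate-fed group (n = 7) was housed permanently and received a concentrate with barley straw, in an amount set so that both groups would grow at a similar rate. Animals of a group were kept in several smaller groups, the replicates are separate animals, and diet and housing cannot be told apart.

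Slow, or type I, fibres of skeletal muscle contract slowly, resist fatigue and rely on mitochondrial oxidation. Their sarcomeres are built from a slow set of protein isoforms, in which a slow myosin moves along thin filaments that a slow troponin and tropomyosin complex opens when calcium binds. LD muscle of cattle is a mixed muscle in which fast fibres are the larger part. A sample of whole muscle cannot tell a smaller number of slow fibres from less slow fibre RNA in each fibre. Markers of both fibre types were measured on all arrays, with the main slow and fast troponins among the brightest probe sets. The fast genes TNNC2 and TNNI2, for troponin C and troponin I of fast fibres, had log2 levels of 14.41 and 14.06 outdoors, against 14.42 and 14.14 indoors. The heart also uses MYH7, MYL2, MYL3 and TNNC1. Of the sarcomere genes more typical of heart or of developing muscle, MYBPC3, the cardiac myosin binding protein C, was flat at a log2 level of 5.94 in both groups, while ACTC1, cardiac actin, averaged 9.66 ± 1.70 outdoors and 10.82 ± 1.52 indoors (SD, n = 7 each) and reached 13.21 in outdoor replicate 5 and 12.75 in indoor replicate 2.

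None of the slow fibre probe sets differed between the production systems past the threshold. A probe set is called varying here where its SD over the 14 arrays was above 0.01. All 12 slow fibre probe sets that varied were on average higher in the outdoor/pasture-fed animals, by 0.03 to 0.37 on the log2 scale, with a median of 0.11. In limma, 0 of the 13 passed an adjusted p of 0.05 and 0 had an unadjusted p under 0.05. Of the 13, 1 had an unadjusted p under 0.05 with a block on replicate number, without outdoor replicate 2 and without indoor replicate 1, and again 0 passed the adjusted threshold. Over all 24016 probe sets, 4 passed (0.0167%), and 11.4% had an unadjusted p under 0.05, or 19.9% of the varying ones. A fit to the 9623 varying probe sets alone called 33 (0.343%), again with 0 slow fibre probe sets, and 47.5% were on average higher outdoors. The groups overlapped on all 13 slow fibre probe sets, and 0.811% of the varying probe sets had groups that did not overlap. These probe sets are not independent of each other, since several measure the same gene. On 4 of the 12, namely MYL3 and the 3 probe sets of MYOZ2, the outdoor median was below the indoor median although the outdoor mean was higher.

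**Figure D1:**
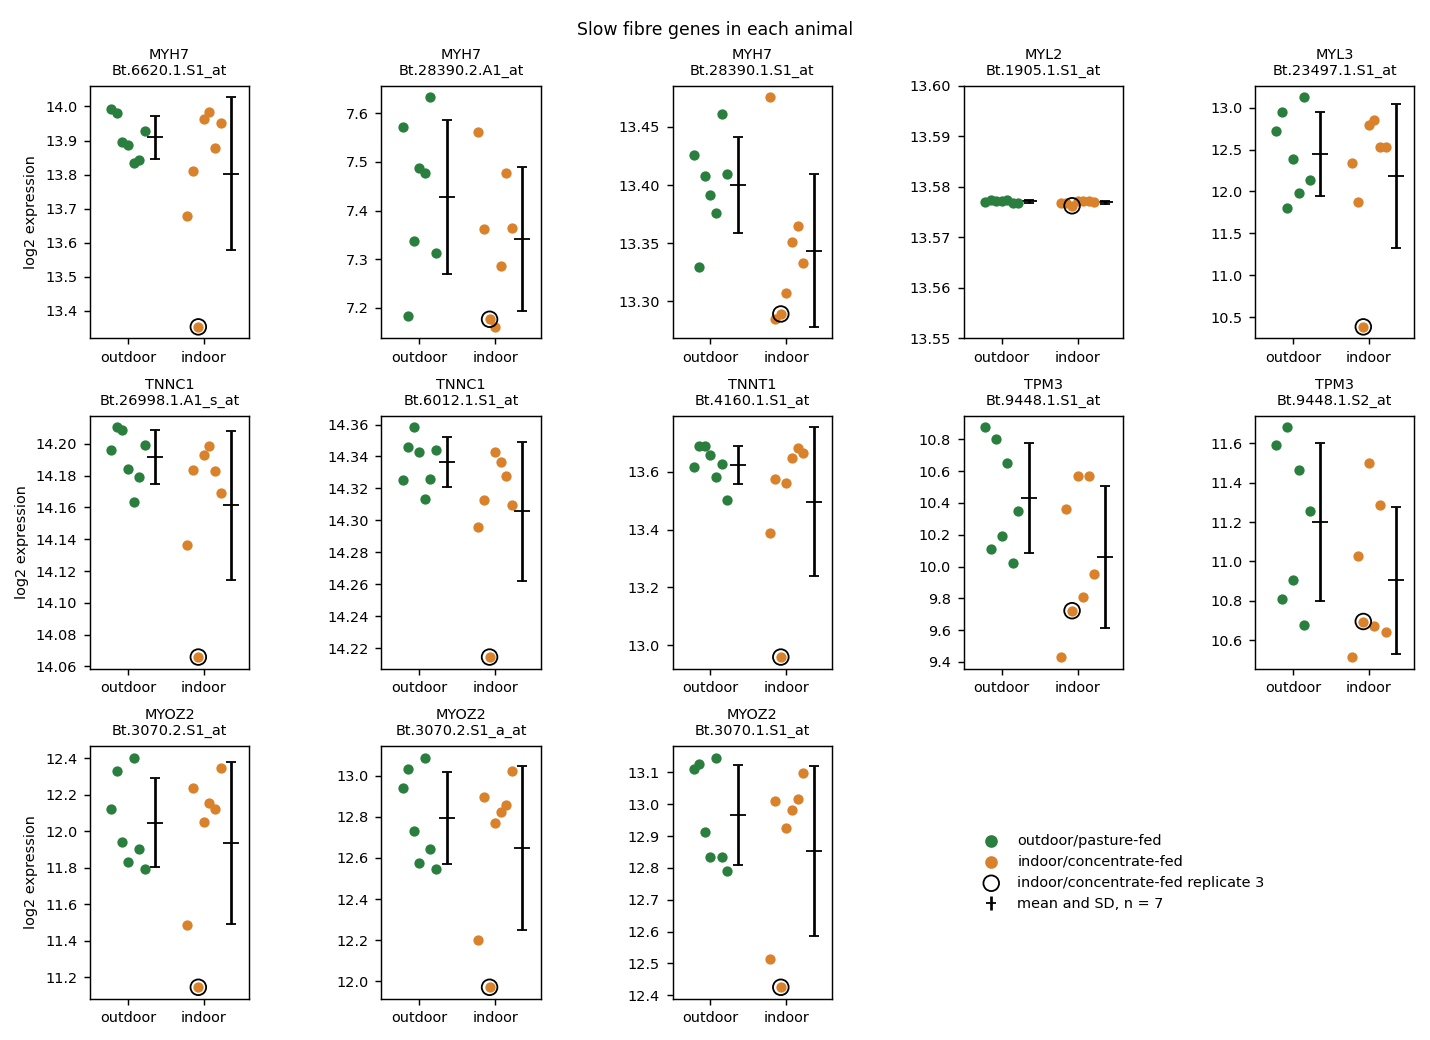
Log2 expression of the 13 slow fibre probe sets in each animal, with the outdoor/pasture-fed animals on the left (green) and the indoor/concentrate-fed animals on the right (orange). Each panel has its own scale, black bars give the mean and SD (n = 7 each), and the circled animal, indoor/concentrate-fed replicate 3, is the lowest of 14 on 8 of the 12 that varied.

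MYH7 encodes the slow (beta) myosin heavy chain, the motor protein of slow fibres, and its 3 probe sets did not vary together. The probe set Bt.6620.1.S1_at lay between 13.83 and 13.99 with a median of 13.89 in outdoor animals, against 13.35 to 13.98 with a median of 13.88 in indoor animals. The means were 13.91 ± 0.063 outdoors and 13.80 ± 0.225 indoors (SD, n = 7 each), a log2 difference of 0.11 (SE 0.087, adjusted p = 0.705, limma). The highest and the median animals of both groups were nearly level, and the difference was 0.03 without the lowest indoor animal, replicate 3. The second probe set, Bt.28390.1.S1_at, ran from 13.33 to 13.46 with a median of 13.41 outdoors, against 13.28 to 13.48 with a median of 13.33 indoors. Its difference of 0.06 (SE 0.029) had the smallest p of the slow fibre probe sets in limma (adjusted p = 0.491), with an exact two-sided permutation p of 0.0793. Here 5 of the 7 indoor animals lay between 13.28 and 13.35, and the highest of all 14 was indoor replicate 1, at 13.48.

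The third MYH7 probe set, Bt.28390.2.A1_at, was much dimmer. It had a mean log2 level of 7.43 outdoors against 7.34 indoors, with a difference of 0.09 (SE 0.081, adjusted p = 0.750, limma). After each group mean was removed, the 2 probe sets of the Bt.28390 cluster followed each other across the 14 animals (Pearson r = 0.751). Neither followed Bt.6620.1.S1_at, with r = -0.014 and -0.011. Those were -0.553 and -0.594 without indoor replicate 3, while the 2 probe sets of the cluster kept r = 0.722. The symbol MYH7 therefore covers 2 unlike patterns in these animals, and the value of a MYH7 result depends on the probe set. Bt.6620.1.S1_at had the larger SD of the 2 bright ones, 0.168 against 0.060 over the 14 arrays, and stands for MYH7 below by the rule that each gene is represented by its probe set with the highest SD. The dim one had 0.154. It had the larger SD in outdoor animals (0.159 against 0.063) and in indoor animals other than replicate 3 (0.141 against 0.116). The choice thus leans on replicate 3, and the MYH7 correlations below hold for Bt.6620.1.S1_at only.

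The 2 slow light chains behaved unlike each other. MYL3, the essential light chain of slow and ventricular myosin, was the most variable slow fibre gene, with an SD of 0.688 over the 14 animals. It ranged from 11.80 to 13.12 with a median of 12.39 in outdoor animals. In indoor animals it ranged from 10.38 to 12.85 with a median of 12.53. The outdoor mean was 12.44 ± 0.503 against 12.19 ± 0.858 indoors (SD, n = 7 each), a difference of 0.26 (SE 0.373, adjusted p = 0.855, limma), far inside the spread. Without indoor replicate 3 the difference was -0.04.

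MYL2, the regulatory light chain of slow and ventricular myosin, gave a constant value of 13.58 on every array, with an SD of 0.000305. Its group difference of 0.000207 is too small to interpret, and results below are given without MYL2 where it would count. FARMS, the method that summarised the probes, can return such flat values. MYL2 was also among the brightest 1% of probe sets by mean, at or above a log2 level of 12.90. That bright class, called near-saturated here, held 7 of the 13 slow fibre probe sets, 2 of MYH7, both of TNNC1 and 1 each of MYL2, TNNT1 and MYOZ2. The highest mean of any probe set was 14.41. Near the top of the scale an array can show a change as smaller than it is in the transcript, and whether it did so here was not tested.

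Troponin C, encoded by TNNC1, is the calcium sensor of the thin filament in slow fibres and heart. Its probe set Bt.6012.1.S1_at was the brightest of the slow fibre genes and lay between 14.31 and 14.36 outdoors (median 14.34), against 14.21 to 14.34 indoors (median 14.31). The difference was 0.03 (SE 0.017, adjusted p = 0.537, limma), and the exact permutation p was 0.0583. The other TNNC1 probe set, Bt.26998.1.A1_s_at, is of the type whose probes may be shared with another gene. It gave nearly the same picture, with means of 14.19 outdoors and 14.16 indoors, a difference of 0.03 and r = 0.961 with the first. Without indoor replicate 3 the differences of the TNNC1 probe sets were 0.015 and 0.014.

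TNNT1 encodes slow troponin T, which ties the troponin complex to tropomyosin. Outdoor animals lay between 13.50 and 13.69 with a median of 13.63. Indoor animals lay between 12.96 and 13.68 with a median of 13.57. The means were 13.62 ± 0.066 and 13.50 ± 0.257 (outdoor and indoor, SD, n = 7 each), with a difference of 0.13 (SE 0.0996, adjusted p = 0.689, limma), and of 0.04 without indoor replicate 3.

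TPM3, the slow alpha-tropomyosin gene, which also makes tropomyosins of non-muscle cells, had the largest group differences of the set. On Bt.9448.1.S1_at the outdoor animals lay between 10.02 and 10.88 with a median of 10.35. The indoor animals lay between 9.43 and 10.57 with a median of 9.95. The means were 10.43 ± 0.346 outdoors and 10.06 ± 0.446 indoors, a difference of 0.37 or 1.29-fold (SE 0.211, 95% interval -0.09 to 0.83). It did not pass (adjusted p = 0.541 over all and 0.311 among varying probe sets, limma, exact permutation p = 0.110). The second probe set, Bt.9448.1.S2_at, had means of 11.20 outdoors and 10.91 indoors, a difference of 0.29 (SE 0.205, adjusted p = 0.641, limma). The 7 animals with the highest values were the same on both probe sets, namely outdoor replicates 1, 3, 5 and 7 and indoor replicates 2, 4 and 6. Without indoor replicate 3 the TPM3 differences were 0.31 and 0.26, so they rested on that animal less than those of MYL3 or MYOZ2 did.

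MYOZ2 encodes calsarcin-1, a protein of the Z-disc of slow fibres and heart that binds the phosphatase calcineurin. Its most variable probe set, Bt.3070.2.S1_at, ran from 11.79 to 12.40 with a median of 11.94 outdoors, against 11.14 to 12.35 with a median of 12.12 indoors. The means were 12.05 ± 0.245 outdoors and 11.93 ± 0.444 indoors, and the difference of 0.11 (SE 0.190, adjusted p = 0.879, limma) was -0.02 without indoor replicate 3. In outdoor animals the 3 highest values were those of replicates 5, 2 and 1 (12.40, 12.33 and 12.12), and the other 4 lay between 11.79 and 11.94. The indoor animals had 5 values from 12.05 to 12.35 and the low values 11.49 and 11.14 of replicates 1 and 3. The other 2 probe sets of MYOZ2 gave differences of 0.15 and 0.11 and followed the first closely, since r between the 3 was 0.979 to 0.994.

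**Figure D2:**
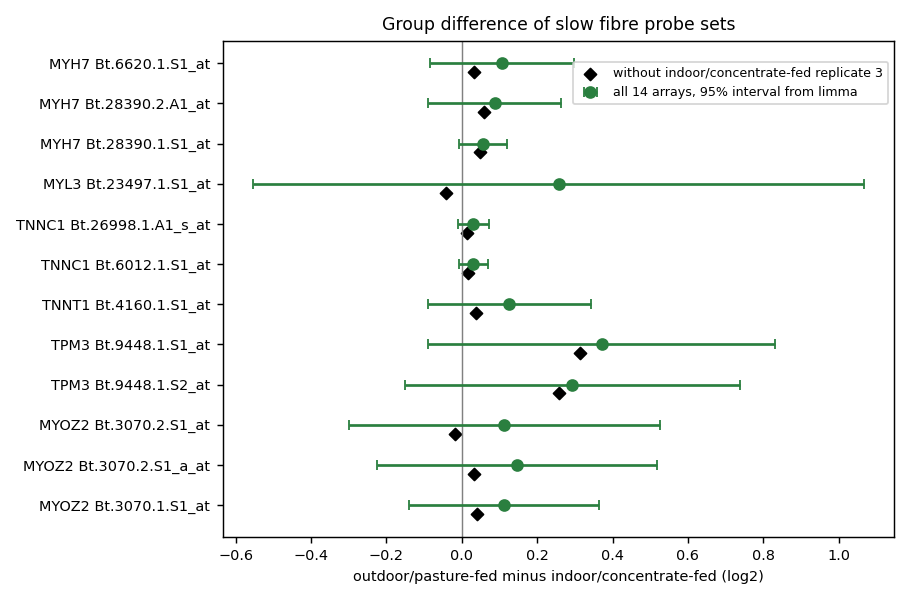
Log2 difference, outdoor minus indoor, of the 12 slow fibre probe sets that varied, with 95% intervals from limma over 14 arrays (green) and the difference without indoor/concentrate-fed replicate 3 (black diamonds). Every interval includes 0, and without that animal 10 of the 12 differences were above 0 and 2 below.

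The animal that set the lower end of the indoor group was nearly always the same. Indoor replicate 3 was the lowest of all 14 on 8 of the 12 slow fibre probe sets that varied, the exceptions being both TPM3 probe sets and the 2 of MYH7 in the Bt.28390 cluster. Its MYL3 level of 10.38 was 4.29-fold below the mean of the other 6 indoor animals, 12.49 ± 0.355 (SD, n = 6). MYOZ2, at 11.14 against 12.07, was 1.89-fold lower, TNNT1, at 12.96 against 13.59, was 1.55-fold lower, and MYH7 at Bt.6620.1.S1_at, at 13.35 against 13.88, was 1.44-fold lower. Without this animal the next lowest was indoor replicate 1, which then had the lowest value on 9 of the 12 varying probe sets. Without replicate 3 the median difference of the 12 was 0.03, and 10 were higher and 2 lower outdoors, beside 46.4% higher outdoors over all varying probe sets.

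The array of indoor replicate 3 correlated with the other indoor arrays at a mean r of 0.974, the second lowest of the 14 arrays after indoor replicate 2 (0.968 to 0.985 over all arrays). It had the lowest value of the 7 indoor arrays on 16.8% and the highest on 11.8% of the varying probe sets. Other cell types did differ in it. The 5 fibroblast markers had a mean log2 level of 11.89, the highest of the indoor arrays (10.75 to 11.89, with 10.42 to 12.29 outdoors), and 4 of the 5 were at their indoor maximum. The endothelial markers had their lowest mean of all 14, 8.24 against 8.72 to 9.04 outdoors and up to 8.69 indoors, with 3 of the 4 that varied at their indoor minimum. The satellite cell markers lay at 7.09, the highest of the indoor arrays (6.59 to 7.09, with 6.54 to 7.27 outdoors), but only 1 of the 3 was at its indoor maximum. The part of these cells in the low slow fibre values was not tested.

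To describe the slow fibre programme of each animal in 1 value, the log2 levels of the 7 representative probe sets were averaged into a slow fibre readout, to which the flat MYL2 adds the same amount in every animal. It averaged 12.89 ± 0.084 in outdoor animals, with a range of 12.78 to 13.02, against 12.75 ± 0.283 in indoor animals, with a range of 12.17 to 12.96 (SD, n = 7 each). Both medians were 12.88. The difference of the means was 0.14 (0.17 without MYL2), and 0.05 without indoor replicate 3, when the indoor mean was 12.84 ± 0.140. The 2 lowest of all 14 values were indoor replicates 3 (12.17) and 1 (12.58), and the 2 highest were outdoor replicates 1 (13.02) and 2 (12.98). The groups overlapped from 12.78 to 12.96. The indoor spread exceeded the outdoor spread on 10 of the 12 varying slow fibre probe sets, with a median ratio of the SDs of 1.74, beside 59.9% of all varying probe sets with a median ratio of 1.13. Without indoor replicate 3 it did so on 9 of 12, beside 58.1%.

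**Figure D3:**
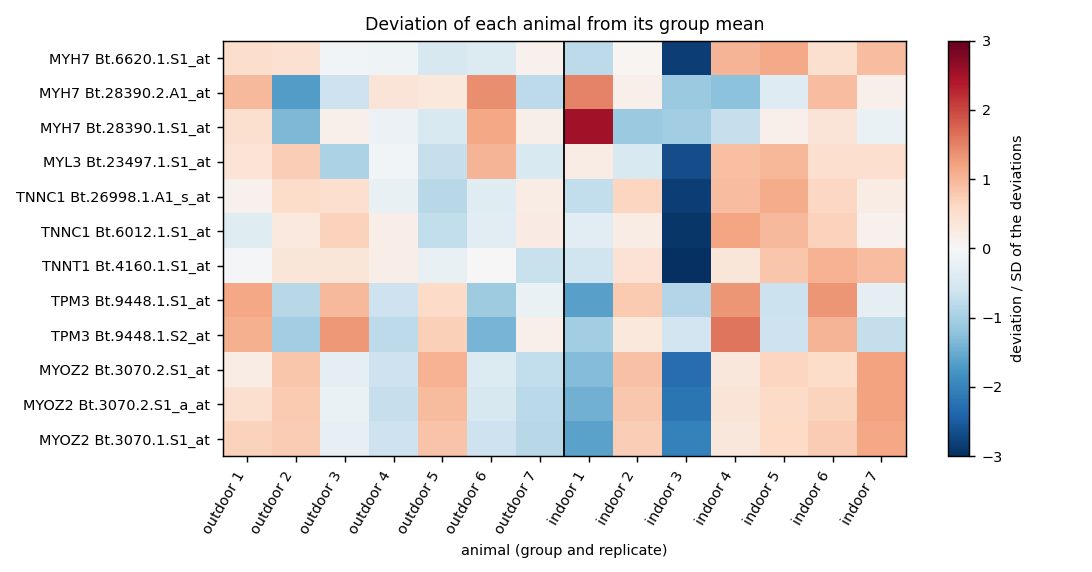
Deviation of each animal (columns, outdoor/pasture-fed 1 to 7 on the left and indoor/concentrate-fed 1 to 7 on the right of the line) from its group mean for the 12 varying slow fibre probe sets (rows), divided by the SD of the deviations of that row. Blue is below and red above the group mean. Indoor 3 is blue in every row and indoor 1 in most, while the TPM3 and Bt.28390 rows do not follow the rest.

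From animal to animal the slow fibre genes varied together little in the outdoor group and, by Pearson r, closely in the indoor group. This was measured on the deviations from the group means, so that the production system itself added nothing. Over the 15 pairs of the 6 genes that varied, the median Pearson r was 0.734 (0.025 to 0.940) in all 14 animals, 0.115 within outdoor animals and 0.900 within indoor animals, and it was 0.414 in all animals without indoor replicate 3. In a two-sided permutation test 10 of the 15 had an adjusted p under 0.05 by Pearson r, and 4 by Spearman rho, whose median was 0.495. With MYL2 included, whose variation is in the fourth decimal, it was 14 and 6 of 21 pairs, with a median r of 0.730. The test shuffled deviations over all 14 animals and so took both groups as equally spread. The indoor SD of the 6 genes was 1.29 (TPM3) to 3.88 (TNNT1) times the outdoor SD. The p-values over 14 animals, here and for single pairs below, can therefore be too small. Over all pairs of the 9623 varying probe sets the median r was 0.015, and 1.07% of the pairs reached 0.734.

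The tightest pair was MYH7 and TNNC1, the motor and the calcium sensor, at r = 0.940 (permutation p = 5e-05, adjusted over 21 pairs p = 0.00105, rho = 0.824, adjusted p = 0.0130). TNNC1 is represented by Bt.26998.1.A1_s_at, whose probes may be shared with another gene, and both probe sets are near-saturated. The r of the pair was 0.743 within outdoor animals (exact permutation p = 0.0603) and 0.963 within indoor animals (exact permutation p = 0.0075). The pair kept r = 0.777 without the 2 animals farthest from the median of MYH7, indoor replicates 3 and 5. Values without the 2 farthest animals kept the group means of all 14 animals, so an offset between the groups can enter them. With the means recomputed, the pair had r = 0.788 without replicate 3 alone. MYH7 with TNNT1 had r = 0.900 (adjusted p = 0.0027 by permutation, rho = 0.662), and TNNC1 with TNNT1 had r = 0.895 (adjusted p = 0.0027, rho = 0.776). These pairs were looser without the 2 farthest animals, at 0.622 and 0.639, and had r = 0.115 and 0.338 within outdoor animals. MYL3 followed MYH7 (r = 0.817, rho = 0.596, adjusted p = 0.0064 and 0.0706 by permutation), with r = 0.426 without the 2 farthest animals. MYOZ2 followed TNNT1 best (r = 0.818, rho = 0.697, adjusted p = 0.0027 and 0.0370 by permutation), with r = 0.587 without the 2 farthest animals. Without replicate 3 alone and with recomputed means, MYH7 with TNNT1 and TNNC1 with TNNT1 had r = 0.598 and 0.583. MYH7 with MYL3 then had 0.438, and TNNT1 with MYOZ2 had 0.626.

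**Figure D4:**
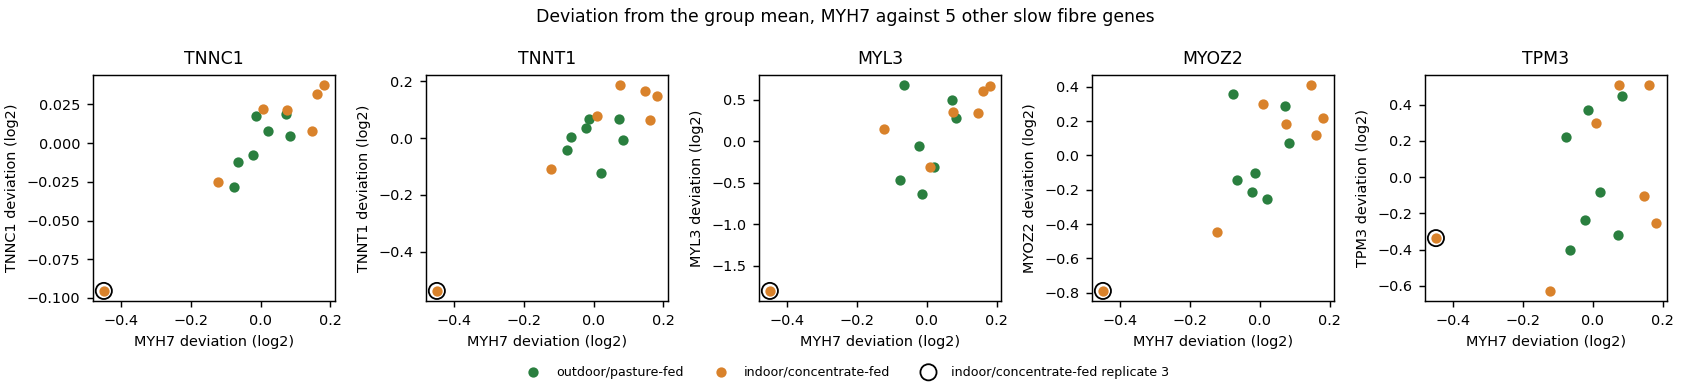
Deviations from the group mean on the log2 scale, MYH7 (Bt.6620.1.S1_at, horizontal) against TNNC1, TNNT1, MYL3, MYOZ2 and TPM3 (vertical), 1 point for each animal, green where outdoor and orange where indoor (7 each). The circled animal is indoor replicate 3. TNNC1 lies along a line also among the other animals (r = 0.788 without replicate 3), while TPM3 is scattered (r = 0.396 with it).

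Within outdoor animals r ran from -0.589 to 0.743, and 0 of the 15 pairs had an unadjusted exact permutation p under 0.05. Within indoor animals 7 of the 15 had an adjusted p under 0.05 by exact permutation of Pearson r. By Spearman rho, the unadjusted exact permutation p was 0.0067 for MYH7 with MYL3 and 0.0238 for MYH7 with TNNC1. For the rest of the 7 it was 0.066 to 0.354 by rho. The difference between the groups was not tested. Without indoor replicate 3, 14.5% of all pairs of varying probe sets reached the median of 0.414. With near-saturated probe sets left out, the 4 genes MYH7 (at its dim probe set), MYL3, TPM3 and MYOZ2 had a median r of 0.152. The 6 indoor animals other than replicate 3 had a median r of 0.654 for the 6 varying genes. The first principal component of the 6 genes held 72.9% of their scaled variance, and 51.2% without replicate 3. MYH7, TNNT1, TNNC1 and MYOZ2 had loadings of 0.41 to 0.46 on it, and MYL3 had 0.39. Without replicate 3 the loading of MYL3 was 0.17, while those 4 genes kept loadings of 0.41 to 0.51.

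TPM3 was only loosely tied to the others, and MYL3 was so too without indoor replicate 3. The r of TPM3 with the 5 genes MYH7, MYL3, TNNC1, TNNT1 and MYOZ2 was 0.025 to 0.471, with a median of 0.396, while the 10 pairs among those 5 had a median of 0.801 (0.576 to 0.940). Without replicate 3 the median r with MYH7, TNNC1, TNNT1 and MYOZ2 was 0.377 for TPM3 and 0.216 for MYL3, against 0.416 and 0.757 with it. The lowest was TPM3 with MYL3 (r = 0.025, rho = -0.081, adjusted p = 0.937 and 0.785 by permutation), which had r = -0.589 within outdoor animals. TPM3 had its highest values in outdoor replicates 1 (10.88) and 3 (10.80), and outdoor replicate 3 had the lowest MYL3 of its group, at 11.80.

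Fast fibre genes were set beside the slow ones as the counterpart set of the sarcomere. Of 14 fast genes, 9 had a probe set, and 13 of their 17 probe sets varied. None passed the adjusted threshold in limma, beside the same 0.0167% of all probe sets. Among the 13, 9 were lower and 4 higher outdoors on average. At an unadjusted p under 0.05, 8 were lower and 1 higher, beside 10.7% lower and 9.23% higher of all varying probe sets. The 8 belong to MYH1 (3), MYOZ3 (2), TNNC2, TNNI2 and ACTN3. The 4 higher on average were all of MYH1. On the dim Bt.4867.1.A1_at and Bt.4867.2.S1_at outdoor replicate 5 stood apart, at 7.26 and 6.92. The other animals lay at 5.57 to 6.18 and 5.49 to 5.90 there. Bt.12300.1.S1_a_at differed by 0.005. The median difference of the 13 was -0.07, against 0.11 for the slow fibre probe sets. MYH2, MYH4 and MYLPF were matched by no probe set and are not analysed here.

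The bright probe sets of MYH1, the fast IIx myosin heavy chain, went in opposite directions. Bt.12300.2.S1_at lay between 13.85 and 14.01 with a median of 13.96 outdoors, against 13.73 to 13.89 with a median of 13.83 indoors, a difference of 0.14 (SE 0.029, adjusted p = 0.148, limma). Bt.12300.1.S1_at averaged 13.74 outdoors and 13.89 indoors, a difference of -0.15 (SE 0.060, adjusted p = 0.363, limma). The most variable MYH1 probe set, Bt.29854.1.A1_at, averaged 8.96 ± 0.797 outdoors and 9.86 ± 0.179 indoors, a difference of -0.90 (SE 0.306, adjusted p = 0.288, limma). It ranged from 7.90 to 10.01 among the outdoor animals and from 9.56 to 10.04 among the indoor animals. Myosin heavy chain genes are close in sequence, so probes of one may also bind another, and no direction is given for MYH1.

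MYOZ3, the calsarcin of fast fibres, averaged 10.73 ± 0.278 outdoors and 11.32 ± 0.323 indoors, a difference of -0.59 (SE 0.159, adjusted p = 0.226, limma), while MYOZ2, the slow calsarcin, differed by 0.11. At the other MYOZ3 probe set, Bt.11004.1.S1_at, the difference was -0.33. TNNC2 and TNNI2 differed by -0.01 and -0.07 (adjusted p = 0.250 and 0.402, limma). TNNT3, the fast troponin T, was constant at 14.16. Over 36 pairs of a slow and a fast gene the median r across animals was -0.054 (-0.663 to 0.430), 24 were below 0, and 0 had an adjusted p under 0.05 by permutation. On values with the group means left in, 31 of the 36 were below 0 (median -0.233). TPM3 had r below 0 with all 6 fast genes, from -0.663 to -0.385, and from -0.691 to -0.331 without indoor replicate 3. The lowest was TPM3 with MYH1 at Bt.29854.1.A1_at (r = -0.663, rho = -0.727, permutation p = 0.0089, adjusted p = 0.243). It was -0.925 within outdoor animals, -0.634 within indoor animals and -0.744 without the 2 animals farthest from the median. The last value kept the group means of all 14 animals. With the means recomputed, r was -0.680 without indoor replicate 3 alone.

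The genes most like the slow fibre readout were sought among 5925 varying probe sets of 4810 other genes, by Pearson r over the deviations of the 14 animals, as a description. Highest were PDLIM1 (r = 0.955), an actin-associated PDZ and LIM domain protein, XPO4 (0.923), a nuclear export receptor, MYL6B (0.889), an alkali myosin light chain found in slow muscle, ARIH2 (0.833), a ubiquitin ligase, and ACOX2 (0.828), a peroxisomal acyl-CoA oxidase. Without indoor replicate 3 these were 0.844, 0.915, 0.746, 0.432 and 0.50, and the 5 highest genes were then XPO4, STMN2 (0.868), PDLIM1, LOC512672 (0.818) and SPX (0.813). PDLIM1 lay between 10.49 and 10.91 outdoors, against 9.23 to 10.87 indoors, and its 2 lowest animals were indoor replicates 3 (9.23) and 1 (9.98), as for the readout. XPO4 had its 2 lowest values in the same animals, 8.11 and 8.35. MYL6B was dim, with a mean log2 level of 6.36, below the median of 6.80 over all probe sets.

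The most opposite genes were S100A4 (r = -0.900), a calcium-binding protein, PLPP3 (-0.898), a lipid phosphatase, CSPG4 (-0.877), a proteoglycan of pericytes, TIMD4 (-0.866), a phosphatidylserine receptor of macrophages, and UGDH (-0.864), which makes UDP-glucuronate for matrix polysaccharides. CSPG4 and TIMD4 were dim, with mean log2 levels of 5.80 and 5.52, below the median of 6.80 over all probe sets. At such levels their r does not show that pericytes or macrophages varied. S100A4 lay between 10.92 and 11.96 outdoors, against 10.73 to 12.88 indoors, with its highest values in indoor replicates 3 (12.88) and 1 (12.15). Without replicate 3 the 5 values were -0.836, -0.705, -0.614, -0.473 and -0.300, and the 5 lowest genes were then S100A4, CYB5R3 (-0.833), FABP4 (-0.795), IGHM (-0.787) and DUS2 (-0.780). All points of these correlations share the 14 arrays and their normalisation, and no test was made of them.

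Calcium handling differs between slow and fast fibres, and oxidative genes accompany slow ones. Among 10 varying probe sets of calcium handling genes of both fibre types, 9 had r above 0 with the readout (median 0.554, and 0.360 without indoor replicate 3). Without the 2 of ATP2A1, the calcium pump of fast fibres, it was 7 of 8 (median 0.614, and 0.414 without the animal). Among 11 of oxidative metabolism, 10 did (median 0.546, and 0.469 without it). For the 13 fast fibre probe sets 4 did, with a median of -0.078, and over all probe sets of other genes the median was 0.045. Of the 10 glycolytic probe sets 8 had r above 0 (median 0.119, and 0.189 without replicate 3). PLN, phospholamban, which restrains the slow calcium pump, had r = 0.699 to 0.730 at its 3 probe sets, and 0.415 to 0.504 without replicate 3. FABP3, the fatty acid carrier of oxidative muscle, had r = 0.669, and 0.768 without replicate 3. CD36 had r = 0.532 and LPL, lipoprotein lipase, 0.454, and 0.171 and -0.178 without it. SLN, sarcolipin, went the other way at r = -0.371.

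Between the production systems none of the probe sets in these lists passed the adjusted threshold in limma. At an unadjusted p under 0.05, 5 of the 11 oxidative probe sets were higher outdoors and 0 lower, beside 9.23% of all varying probe sets higher. COX7A1, a muscle subunit of cytochrome c oxidase, averaged 12.70 ± 0.077 outdoors and 12.42 ± 0.139 indoors (SD, n = 7 each), a difference of 0.28 (SE 0.060, adjusted p = 0.147, limma). CD36, a fatty acid transporter, averaged 12.41 outdoors and 12.08 indoors (adjusted p = 0.219, limma). Of the 10 calcium handling probe sets 2 were higher at this level and 0 lower, and both belong to ATP2A2, the slow and cardiac calcium pump, which had 11.30 ± 0.362 outdoors and 10.78 ± 0.381 indoors at Bt.1059.1.S1_at, a difference of 0.52 (SE 0.197, adjusted p = 0.335, limma). At the brighter ATP2A2 probe sets Bt.1059.3.S1_a_at and Bt.1059.2.S1_at the difference was 0.16 and 0.09, and at Bt.16296.1.A1_at it was 0.45. PLN differed by 0.18 (adjusted p = 0.804, limma).

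Of 12 varying probe sets of fibre type regulators, 11 were lower outdoors on average, 3 of them at an unadjusted p under 0.05. Of all varying probe sets, 47.5% were higher outdoors and 10.7% were lower at that level. The 11 include every varying probe set of PPARGC1A, a transcriptional coactivator, at -0.54 to -0.27, so they are not 11 separate genes. Across animals these PPARGC1A probe sets had r = 0.524 to 0.746 with the readout, and 0.170 to 0.553 without indoor replicate 3. TEAD4, a transcription factor of the Hippo pathway, averaged 7.59 outdoors and 8.36 indoors, and NFATC1, a calcineurin-activated transcription factor of slow fibres, averaged 7.45 ± 0.347 outdoors and 8.50 ± 0.815 indoors (adjusted p = 0.228 and 0.264, limma). Of 14 for Z-disc partners of MYOZ2 and CSRP3, 12 were lower, 2 of them at that level, which is near the share of all varying probe sets. Of these, MYPN, myopalladin, differed by -0.08 (adjusted p = 0.352, limma), and ANKRD1, a stretch-responsive ankyrin repeat protein, by -0.40 (adjusted p = 0.583, limma). At the brighter ANKRD1 probe set, Bt.15836.1.S1_at, the difference was -0.10. Of 13 for sarcomere genes that both fibre types use, 10 were lower and 3 higher. FLNC, filamin C, differed by -0.58 and MYBPC1, the slow myosin binding protein C, by 0.12 (adjusted p = 0.288 and 0.299, limma). That MYBPC1 probe set had means of 13.32 outdoors and 13.20 indoors, while the dimmer one, Bt.25860.1.A1_at, differed by -0.11.

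Of 10 glycolytic probe sets, 2 were higher and 8 lower outdoors, none at an unadjusted p under 0.05. The lowest p-values belonged to CKM, muscle creatine kinase, and AK1, adenylate kinase, with differences of -0.44 and -0.12 (adjusted p = 0.572 and 0.642, limma). The CKM value is that of Bt.3651.2.A1_at, while the brighter CKM probe set, Bt.3651.1.S1_at, was flat at 13.81. Of 6 for developmental and cardiac sarcomere genes, 5 were higher and 1 lower, again none at that level, and ACTC1 differed by -1.17 (SE 0.856, adjusted p = 0.658, limma). Among the higher ones outdoor replicate 5 stood apart. It had MYH3 at 10.05, against 5.51 to 6.48 in the other animals, and MYH8 at 7.43, against 5.51 to 6.27. MYL4, at 6.95, was also highest of the outdoor group in that animal.

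**Figure D5:**
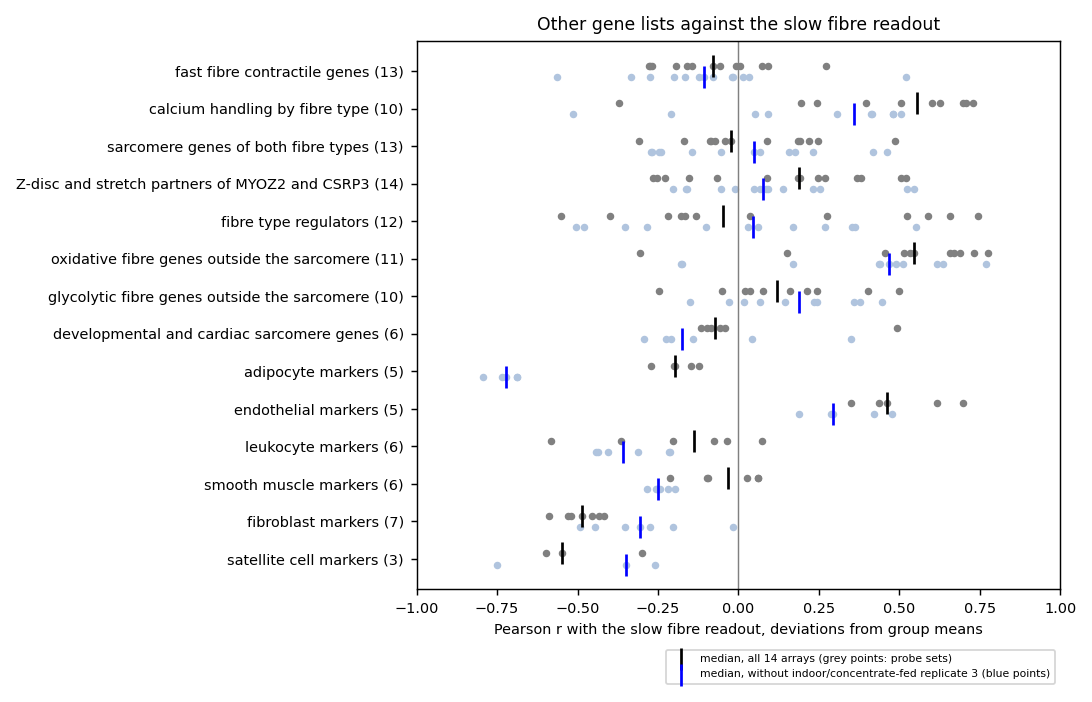
Pearson r of each varying probe set with the slow fibre readout, by gene list (number of probe sets in brackets), over deviations of 14 animals (grey, black median) and without indoor/concentrate-fed replicate 3 (blue). The medians of the calcium handling (0.554) and oxidative (0.546) lists lie right of 0, that of the fast fibre list (-0.078) near 0, and that of the adipocyte markers at -0.196, or -0.722 without replicate 3.

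Markers of other cells also moved with the readout. The 5 adipocyte probe sets had a median r of -0.196 with it, and of -0.722 (-0.795 to -0.688) without indoor replicate 3. FABP4, the fatty acid carrier of adipocytes, was highest in indoor replicate 1, at 7.97 against 5.43 to 6.51 outdoors, and that animal had the second lowest readout. The mean level of the 4 adipocyte markers ranged from 6.40 to 7.36 outdoors and from 6.28 to 8.52 indoors. The endothelial markers had a median r of 0.462 (0.293 without replicate 3), the fibroblast markers -0.485 (-0.306), the satellite cell markers -0.547 (-0.351), the leukocyte markers -0.139 (-0.359) and the smooth muscle markers -0.034 (-0.249). All 5 varying endothelial probe sets were also higher outdoors at an unadjusted p under 0.05, beside 9.23% of all varying probe sets, and none passed the adjusted threshold. PECAM1, an endothelial adhesion molecule, was at 10.22 outdoors against 9.68 indoors (adjusted p = 0.147, limma). Most red blood cell probe sets were constant, and their 1 varying probe set had r = 0.320. The part of these cells in the slow fibre values was not tested.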

How the data were processed

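Expression values were those deposited for 14 arrays of LD muscle, 7 per group. Per the study's methods, the authors hybridised amplified RNA of each animal to Affymetrix GeneChip Bovine Genome Arrays, quantile normalised the arrays and summarised probe sets with FARMS. What they deposited is log2 expression. FARMS can leave a probe set almost constant and bright probe sets can saturate, which both lessen differences. No normalisation was added. The authors' filter for informative probe sets was not repeated.

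A total of 112 control probe sets was left out and 24016 were fitted with limma 3.58.1 in R 4.3.3 (lmFit and eBayes, Benjamini-Hochberg adjustment over all, threshold 0.05), outdoor minus indoor. The fit was tested on simulated data. The exact permutation tests used all 3432 assignments of the arrays, with 0.000583 as the smallest p, and correlations used 100000 resamples (exact within groups). Symbols came from the platform annotation, in which 13292 probe sets have 1 symbol, 86 several and 10638 none. The number of arrays limits the precision.

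All members were named at every probe set. In each other fibre type list the 2 genes with the smallest p were named, with the main fast genes, and the 5 genes most like and most unlike the readout. Further genes, such as FABP3, LPL, SLN, FABP4 and PECAM1, were named after their values were seen. Members, lists and the cut-off for varying probe sets were chosen with earlier results of these data known. Replicate numbers did not pair the animals. The labels name no batch.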

Additional observations from a re-analysis of the deposited data

Results flagged for a closer look

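Among the 28 groups of 7 values examined, 4 held an animal whose gap to its nearest neighbour exceeded Dixon's 95% critical value of 0.568 of the range of the group. Chance alone gives about 1 such group in 20. Indoor/concentrate-fed replicate 3 was low in 3 of them, for MYL3 (10.38, next 11.87), for TNNC1 at Bt.6012.1.S1_at (14.21, next 14.30) and for TNNT1 (12.96, next 13.39). These genes vary together, so the 3 are not independent. Indoor/concentrate-fed replicate 1 was high for MYH7 at Bt.28390.1.S1_at (13.48, next 13.36), while at the other bright MYH7 probe set, Bt.6620.1.S1_at, the same animal was the second lowest of all 14 (13.68).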

How the results depend on the processing

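Under all 22 alternatives to the limma fit, 0 slow fibre and 0 fast fibre probe sets passed the threshold. Of 379 recomputed values 372 kept their direction and call or stayed within the replicate spread. Centring arrays on their medians gave the flat MYL2 a difference of -0.0038. Leaving out each animal in turn gave differences of -0.043 to 0.37 for MYL3, -0.019 to 0.18 for MYOZ2 at Bt.3070.2.S1_at and 0.05 to 0.18 for the readout, with the lowest values without indoor/concentrate-fed replicate 3. The median r between slow fibre genes was 0.371 to 0.785 when animals were left out in turn, 0.115 in outdoor/pasture-fed animals alone, 0.152 without near-saturated probe sets (4 genes remain), and 0.414 without MYL2 and replicate 3, a choice made after seeing the data. The causes were not tested. A block on replicate number called 2 of 24016 probe sets, against 4 without it, left the readout difference at 0.143 and changed no slow fibre call. The correlation of animals with the same number was -0.184 to 0.235, over 0.1 in 2 of 7 pairs, and 2 of 7 animals correlated best with their own number. Of 24016 probe sets, 1 to 8 were called when animals were left out in turn and 2 to 7 under the other fits to all of them. Fits to 9623 varying and to 12008 brighter probe sets called 33 and 17.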
